A study of Drosophila melanogaster with 6 samples.

Results

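The 10 genes described here encode factors that make the 3' ends of messenger RNAs or take messenger RNAs apart. They were chosen by name. Cpsf100, Cpsf73, CstF-50, CstF-64 and Fip1 act in 3' end cleavage and polyadenylation, Dcp1, Dcp2 and LSm1 in decapping, and Dis3 and Csl4 in the RNA exosome. All 10 were found among the 3989 genes tested and passed the minimum mean of 1 RPKM (the read number of a feature per kilobase of its length and per unit of sequencing depth) over the 6 samples. Their levels were measured in S2 cells, an embryo-derived Drosophila melanogaster line with features of blood cells, in 2 samples each of a control knockdown, a knockdown of NAP-1 and a knockdown of CBP. NAP-1 is a histone chaperone encoded by Nap1, and CBP is a histone acetyltransferase encoded by nej. All groups were the same cell line grown in the same serum-supplemented Schneider's medium, and the labels name neither the knockdown reagent nor its duration. Whether the samples of a group were grown as separate cultures is not stated, so the spread that p-values measure is that between these samples alone and may be technical.

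Most messenger RNAs get their 3' ends from a complex that recognises the polyadenylation signal, cuts the transcript with the endonuclease Cpsf73 and hands it to poly(A) polymerase. In the cytoplasm, decay usually starts with shortening of the poly(A) tail. The LSm ring, of which LSm1 is the subunit that marks the cytoplasmic form, then favours decapping by the enzyme Dcp2 and its activator Dcp1, which opens the transcript to digestion from the 5' end. The exosome, a ring of subunits such as Csl4 with the nuclease Dis3 attached, digests from the 3' end.

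The libraries held between 4162019 and 5362319 alignments. Of the 4459 features read, 4121 and 4146 reached 1 RPKM in the control samples. The numbers were 3967 and 3997 in NAP-1 knockdown and 3751 and 3256 in CBP knockdown. The part of this difference in the results below was not tested. Nap1 stood at 220 and 243 RPKM in control cells and at 20.6 and 26.5 RPKM in NAP-1 knockdown cells (log2 fold change -3.25 ± 0.27 SE, limma, Benjamini-Hochberg adjusted p = 0.0296), and that call was lost when any 1 library was left out, with the replicate number as a block (adjusted p = 0.149), with median-of-ratios scaling (0.113), with 4 samples in the fit (0.323), with single features (0.067) and with a trend on transcript length removed (0.0771). The level of nej was low in all samples, at 3.25 and 2.47 RPKM in control cells and 0.899 and 0.363 RPKM in CBP knockdown cells (log2 fold change -1.26 ± 0.37 SE, limma, adjusted p = 0.0467). The call for nej was lost without either control or either CBP knockdown sample, with a pseudocount of 0.1 (adjusted p = 0.0597), median-of-ratios scaling (0.053), the replicate block (0.0692) or single features (0.0739). Its log2 fold change was -0.56 (adjusted p = 0.222) with quantile normalization and 0.23 (adjusted p = 0.557) once the length trend was removed. On the first principal component of all genes, with 69% of the variance, the controls had scores of -34.1 and -26.2, NAP-1 knockdown 0.145 and -26, and CBP knockdown 30.3 and 55.8. Of 10 markers of blood cells and S2 cells, 9 had a feature, and their summed level was 253.1 and 205.7 RPKM in control cells, 169.4 and 196.3 RPKM in NAP-1 knockdown cells, and 97.92 and 74.32 RPKM in CBP knockdown cells. Within that list Hml, He and NimC1, markers of mature blood cells, were at or near 0 in every sample (at most 0.3482 RPKM). The same held for srp (at most 0.1658 RPKM), and Ppn lay between 1.037 and 1.967 RPKM. The sums and their fall therefore came almost wholly from Col4a1, vkg, LanA and crq. The listed markers of other cell types summed to 0.2812 to 3.495 RPKM (neuron, 3 of 4 with a feature), 0.5036 to 5.785 RPKM (germ line, 2 of 4), at most 0.04016 RPKM (muscle, 1 of 4) and at most 0.02924 RPKM (fat body, 1 of 3), and those of follicle cells had no feature. The part of these markers in the results below was not tested. In bulk RNA, fewer cells of a type and less RNA per cell cannot be told apart.

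In the control samples the 10 genes differed in level by an order of magnitude. RPKM is scaled per length, so levels can be compared between genes, though only roughly. The level of Dcp1 sums a pair of features, and the features of Dcp2 and Dis3 do not cover every listed mRNA by name. LSm1 (15.7 ± 7.96 RPKM, SD, n = 2), Dcp1 (15.2 ± 0.972 RPKM) and Fip1 (14.6 ± 1.59 RPKM) stood highest, and their spreads overlapped. Every control value of these genes lay above both values of Cpsf73 (8.31 ± 0.683 RPKM). Below Cpsf73 came Csl4 (7.25 ± 0.162 RPKM), Dcp2 (7.25 ± 6.9 RPKM), CstF-50 (6.71 ± 1.05 RPKM), CstF-64 (5.61 ± 0.153 RPKM) and Cpsf100 (4.98 ± 0.436 RPKM). Among these, the values of Csl4 and CstF-50 overlapped and those of Dcp2 reached from below Cpsf100 to above Cpsf73, while the other neighbours in the order did not overlap. Dis3 was lowest, with 1.17 ± 1.64 RPKM, and 4.91% of the genes tested had a lower control mean.

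**Figure D1:**
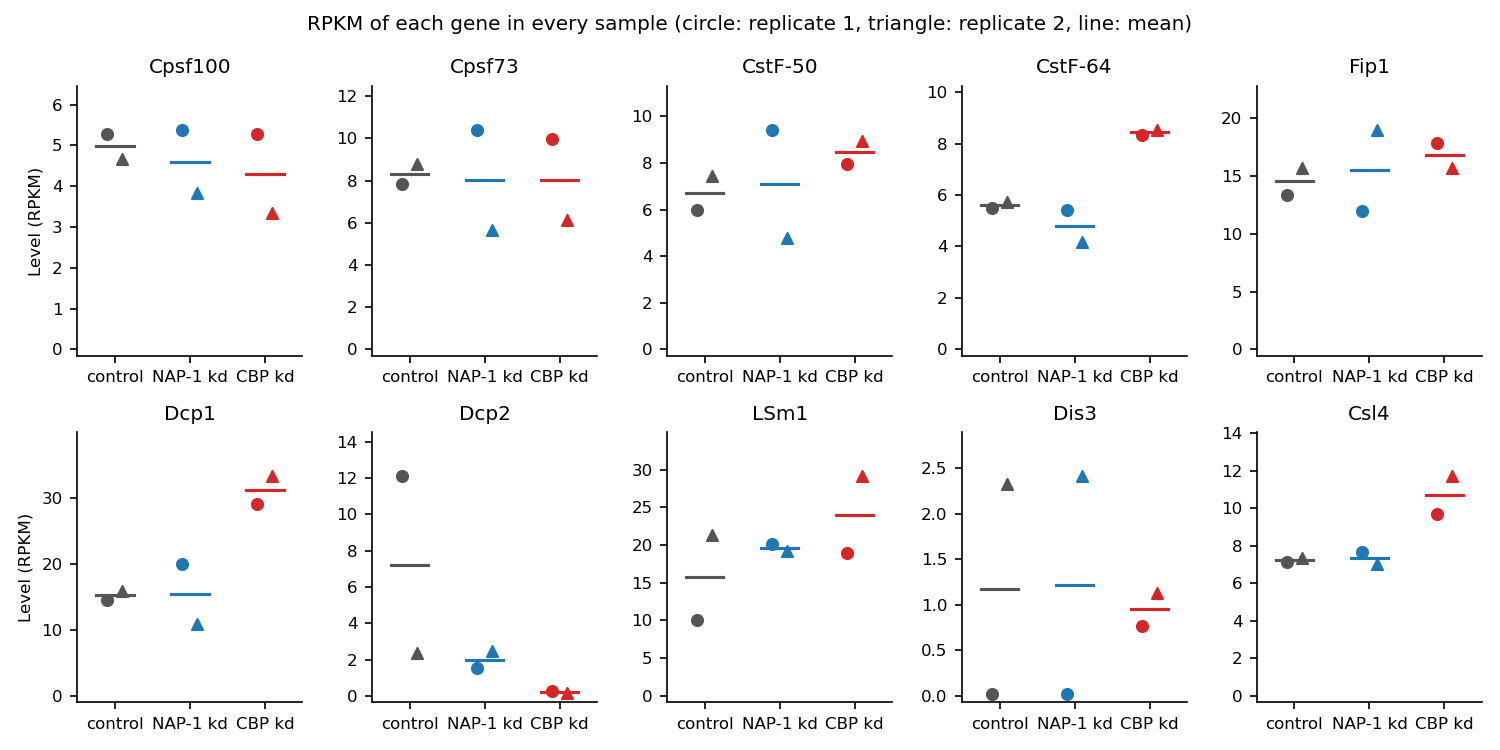
Level of each of the 10 genes (RPKM, linear axis, a scale of its own for each gene) in the control, NAP-1 knockdown and CBP knockdown samples; circles are replicate 1, triangles replicate 2 and lines the mean of 2. Both CBP knockdown samples lie above all other samples for Dcp1, CstF-64 and Csl4 and below all others for Dcp2, while Dis3 separates replicate 1 from replicate 2 in control and NAP-1 knockdown.

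In CBP knockdown Dcp2 fell, and no other of the 10 genes passed the test. Against control, 0 of 10 were called higher, where 8.5% of all genes tested were, and 1 of 10 was called lower, where 17.4% were (limma, at an adjusted p under 0.05). Over all genes 339 were called higher and 693 lower, or 494 and 639 under median-of-ratios scaling and 370 and 413 under quantile normalization. At an unadjusted p under 0.05, Dcp1 was higher and Dcp2 lower, 1 of 10 in each direction against 16.5% and 27.2% of all genes. The median log2 fold change of the 10 genes was 0.25 and that of all genes was -0.15. The median of all genes was 0.01 under median-of-ratios scaling and 0.12 under quantile normalization. That of the 10 genes was not taken under these scalings, so its 0.25 compares only with the -0.15. Without overlap between groups, 5 of 10 were higher in CBP knockdown (CstF-50, CstF-64, Fip1, Dcp1 and Csl4), against 33.7% of all genes, and 1 of 10 was lower (Dcp2), against 42.4%. Fold changes here and below are on the log2(RPKM + 1) scale, which understates the change of genes at low levels.

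Dcp2, the enzyme that removes the cap, had the largest fold change between groups of the 10 genes, in either direction. It stood at 12.1 and 2.37 RPKM in control cells, 1.52 and 2.45 RPKM in NAP-1 knockdown cells, and 0.24 and 0.142 RPKM in CBP knockdown cells. Both CBP knockdown samples were below every other sample, and the controls differed from each other 5.12-fold, with 98.7% of all genes having a smaller difference between the controls on the log2(RPKM + 1) scale. The group mean went from 7.25 RPKM in the controls to 0.191 RPKM after CBP knockdown, 38-fold lower, with a log2 fold change of -2.48 ± 0.62 (SE, 95% interval -3.95 to -1.02, limma, adjusted p = 0.0328). Control replicate 1 carried much of that size: without it the log2 fold change was -1.50 (adjusted p = 0.135), and without control replicate 2 it was -3.46 (adjusted p = 0.0421). The call was also lost without CBP knockdown replicate 1 (-2.54, adjusted p = 0.0887) or replicate 2 (-2.42, adjusted p = 0.179). Without control replicate 1 or CBP knockdown replicate 2, 0 of the 3989 genes were called in either direction. With quantile normalization the log2 fold change was -1.92 (adjusted p = 0.085), and with a pseudocount of 0.1 it was -4.26 (adjusted p = 0.0292). The control mean did much to carry Dcp2 over the minimum mean of 1 RPKM, and its CBP knockdown mean lay below that minimum. The 10 genes were kept in the test whatever their mean.

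The depth behind the low Dcp2 values was small. If RPKM is taken as scaled to the deposited alignments and to the median transcript length, the controls held about 191 and 40.0 reads of Dcp2, the NAP-1 knockdown samples about 26.1 and 33.2, and the CBP knockdown samples about 4.13 and 2.47. Release 6 of the genome lists 4 RefSeq mRNAs for this gene, and 2 of them had a named feature in the table. One of these repeated the symbol-only feature exactly and was counted once, and the other was near 0 in all samples, so the values come from a single estimate that does not cover every listed mRNA by name.

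Dcp1, the activator of Dcp2 (not the caspase of similar name), had the highest level of the 10 genes in each CBP knockdown sample. It stood at 14.5 and 15.9 RPKM in control cells, 20.0 and 10.8 RPKM in NAP-1 knockdown cells, and 29 and 33.2 RPKM in CBP knockdown cells. The CBP knockdown samples lay above all others, while the NAP-1 knockdown samples fell on either side of the controls. The ratio of means to control was 2.05 and the log2 fold change 0.99 ± 0.33 (SE, 95% interval 0.20 to 1.77), which did not pass the adjustment (limma, adjusted p = 0.065). It passed with median-of-ratios scaling (1.18, adjusted p = 0.0431) and with symbol-only features (1.05, adjusted p = 0.044). Fitting only the 4 samples compared also gave a call (adjusted p = 0.0236). It did not pass with quantile normalization (0.85, adjusted p = 0.0937), the replicate block (0.0932), no variance trend (0.0782) or a pseudocount of 0.1 (0.0744). With 1 library left out, the log2 fold change ranged from 0.89 to 1.08.

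The level of Dcp1 is the sum of a pair of features that did not move alike in every sample. The symbol-only feature had 6.35 and 5.88 RPKM in control cells, 5.83 and 10.0 RPKM in NAP-1 knockdown cells, and 14.1 and 13.3 RPKM in CBP knockdown cells. The feature named by a RefSeq mRNA had 8.15 and 9.98 RPKM in control cells, 14.1 and 0.758 RPKM in NAP-1 knockdown cells, and 14.9 and 20.0 RPKM in CBP knockdown cells. In NAP-1 knockdown replicate 2 the RefSeq feature made up 7.05% of the sum, against 51.3% to 70.8% in the other 5 samples. Tested singly in CBP knockdown against control, the symbol-only feature had a log2 fold change (± SE) of 1.05 ± 0.31 (limma, adjusted p = 0.0599) and the RefSeq feature 0.86 ± 0.92 (SE, adjusted p = 0.51).

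Set beside each other within a sample, the activator exceeded the enzyme in all 6 samples. The ratio of Dcp1 to Dcp2 was 1.19 and 6.7 in control cells, 13.1 and 4.39 in NAP-1 knockdown cells, and 121 and 235 in CBP knockdown cells. The CBP knockdown ratios lay far above the others, and the control and NAP-1 knockdown ratios overlapped. These ratios carry the few Dcp2 reads of the CBP knockdown samples in their denominator and were not tested.

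**Figure D2:**
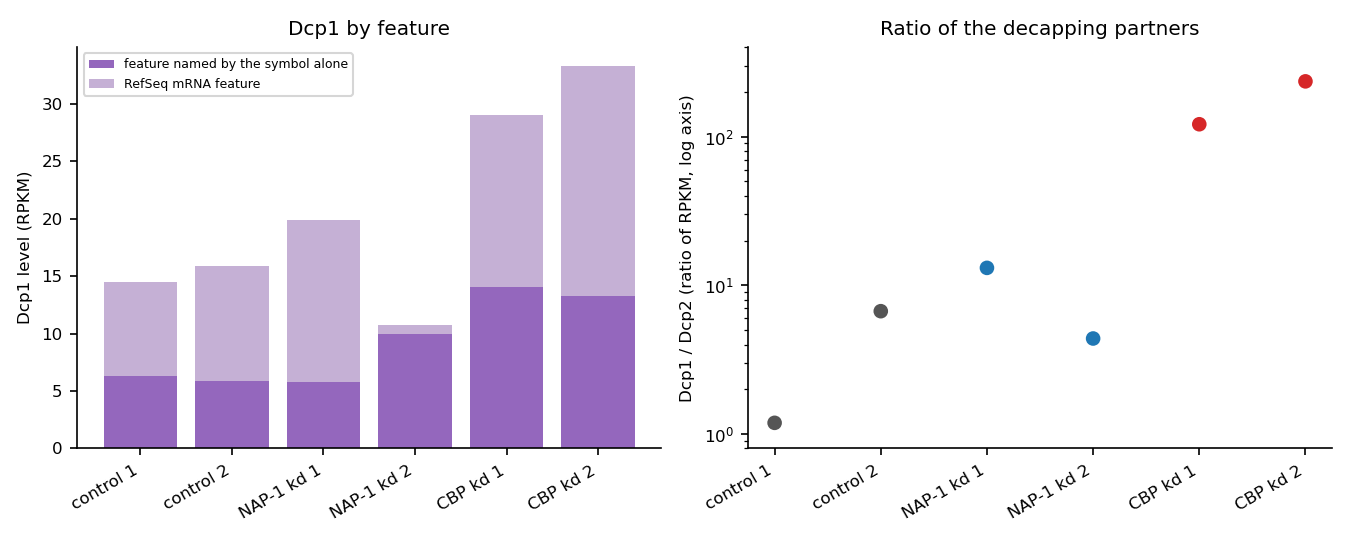
Left, Dcp1 level (RPKM) in each of the 6 samples, with bars stacked from the symbol-only feature and the RefSeq mRNA feature; NAP-1 knockdown replicate 2 holds almost none of the latter (0.758 RPKM). Right, the ratio of Dcp1 to Dcp2 on a log axis, between 1.19 and 13.1 in control and NAP-1 knockdown and at 121 and 235 after CBP knockdown.

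LSm1, the cytoplasmic subunit of the LSm ring, varied between the controls. It stood at 10.1 and 21.3 RPKM in control cells, 20.1 and 19.2 RPKM in NAP-1 knockdown cells, and 18.9 and 29.1 RPKM in CBP knockdown cells. All groups overlapped, and 92.3% of genes had a smaller difference between the controls. The log2 fold change in CBP knockdown was 0.64 ± 0.39 (SE, 95% interval -0.30 to 1.57, limma, adjusted p = 0.249), so a change of either direction remains within the interval.

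Among the 3' end factors, CstF-64 separated most clearly and none passed the test. CstF-64, the subunit that binds the RNA downstream of the cleavage site, stood at 5.51 and 5.72 RPKM in control cells, 5.42 and 4.17 RPKM in NAP-1 knockdown cells, and 8.33 and 8.53 RPKM in CBP knockdown cells. The 3 groups did not overlap, with CBP knockdown highest and NAP-1 knockdown lowest. The log2 fold change against control was 0.51 ± 0.27 in CBP knockdown (SE, 95% interval -0.13 to 1.15, limma, adjusted p = 0.186) and -0.20 ± 0.27 in NAP-1 knockdown (adjusted p = 0.979).

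CstF-50, another subunit of the same cleavage stimulation factor, had 5.96 and 7.45 RPKM in control cells, 9.42 and 4.78 RPKM in NAP-1 knockdown cells, and 7.97 and 8.94 RPKM in CBP knockdown cells. CBP knockdown lay just above the controls, and the NAP-1 knockdown samples reached beyond both groups. Its log2 fold change in CBP knockdown was 0.30 ± 0.35 (SE, 95% interval -0.53 to 1.13, limma, adjusted p = 0.541).

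Fip1, which links the cleavage complex to poly(A) polymerase, had 13.4 and 15.7 RPKM in control cells, 12 and 19 RPKM in NAP-1 knockdown cells, and 17.9 and 15.7 RPKM in CBP knockdown cells. Its control and CBP knockdown samples count as separate only by digits lost in rounding. The log2 fold change in CBP knockdown was 0.20 ± 0.30 (SE, 95% interval -0.51 to 0.91, limma, adjusted p = 0.646).

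The nuclease Cpsf73 and its partner Cpsf100, a related protein without a working active site, had fold changes near 0 in every comparison. Cpsf73 stood at 7.83 and 8.80 RPKM in control cells, 10.4 and 5.65 RPKM in NAP-1 knockdown cells, and 9.96 and 6.12 RPKM in CBP knockdown cells. Cpsf100 stood at 5.29 and 4.67 RPKM in control cells, 5.38 and 3.83 RPKM in NAP-1 knockdown cells, and 5.27 and 3.35 RPKM in CBP knockdown cells. For both genes the groups overlapped, and in each knockdown replicate 1 had the higher value. The log2 fold changes in CBP knockdown were -0.08 ± 0.37 for Cpsf73 (SE, 95% interval -0.95 to 0.80, limma, adjusted p = 0.896) and -0.19 ± 0.32 for Cpsf100 (SE, 95% interval -0.95 to 0.57, adjusted p = 0.674). Their sign is not settled: with quantile normalization they were 0.10 and 0.14, and with median-of-ratios scaling that of Cpsf73 was 0.11.

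The exosome genes differed in how well they were measured. Csl4, a subunit of the cap of the ring, stood at 7.13 and 7.36 RPKM in control cells, 7.67 and 7.03 RPKM in NAP-1 knockdown cells, and 9.67 and 11.7 RPKM in CBP knockdown cells. The CBP knockdown samples lay above all others, with a log2 fold change of 0.50 ± 0.26 (SE, 95% interval -0.12 to 1.11, limma, adjusted p = 0.183). Dis3, the catalytic subunit, stood at 0.0154 and 2.33 RPKM in control cells, 0.0193 and 2.41 RPKM in NAP-1 knockdown cells, and 0.772 and 1.13 RPKM in CBP knockdown cells. Replicate 1 of control and of NAP-1 knockdown was near 0 while replicate 2 of each was above 2 RPKM, a difference of 151-fold and 125-fold, and the groups overlapped. Its log2 fold change in CBP knockdown was 0.08 ± 0.73 (SE, 95% interval -1.66 to 1.82, limma, adjusted p = 0.948), and the interval spans changes in both directions. Release 6 lists 2 RefSeq mRNAs for Dis3 and only a symbol-only feature was in the table, and the gene shares 327 bases with CG6432 on the same strand.

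**Figure D3:**
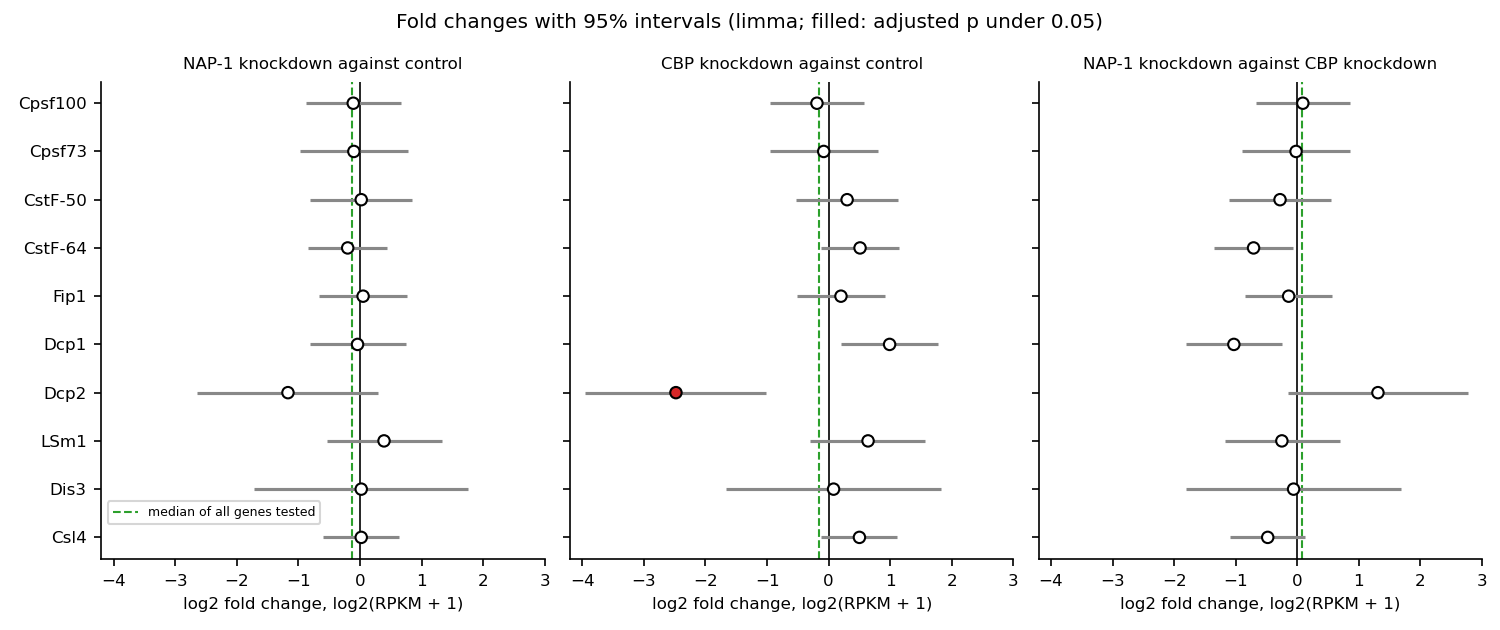
Log2 fold change of each gene on the log2(RPKM + 1) scale (points) with its 95% interval (bars) in the 3 comparisons; the filled point passed the adjusted p of 0.05 and the dashed line is the median of all 3989 genes tested. Dcp2 in CBP knockdown against control (-2.48) is the only filled point, and Dis3 and Dcp2 have the widest intervals.

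Knockdown of NAP-1 gave no call among the 10 genes. Against control, 0 of 10 were higher, where 0% of all genes were, and 0 of 10 were lower, where 0.0251% were, which is Nap1 alone (limma, after adjustment). By unadjusted p-values under 0.05 the count was also 0 of 10 in each direction, where 0.978% of all genes were higher and 2.53% lower. Without overlap between groups, 0 of 10 were higher, against 8.1% of all genes, and 1 of 10, CstF-64, was lower, against 26.2%. The lowest fold change was that of Dcp2, at -1.17 ± 0.62 (SE, 95% interval -2.64 to 0.29, limma, adjusted p = 0.979), and without control replicate 1 it was -0.19. The highest was that of LSm1, at 0.39 ± 0.39 (SE, 95% interval -0.54 to 1.33, adjusted p = 0.979). The median of the 10 genes was -0.01 and that of all genes -0.13. The intervals of Dis3 (-1.72 to 1.76) and Dcp2 are wide, so these data do not show that their levels were alike.

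Set directly against CBP knockdown, NAP-1 knockdown gave no call among the 10 genes either. Of the 10, 0 were higher and 0 lower, where 1.43% and 1.65% of all genes were called (limma, after adjustment). Before adjustment 2 of 10 were lower in NAP-1 knockdown and 0 of 10 higher, against 13.9% and 17.7% of all genes. These were CstF-64 (log2 fold change -0.71 ± 0.27 SE, limma, adjusted p = 0.13) and Dcp1 (-1.03 ± 0.33 SE, adjusted p = 0.0984). Without overlap between groups, 3 of 10 were lower (CstF-64, Dcp1 and Csl4), against 29.8% of all genes, and 1 of 10, Dcp2, was higher, against 32.8%. With 1 library left out, the log2 fold change of Dcp1 ranged from -1.45, without NAP-1 knockdown replicate 1, to -0.61. The fit at -1.45 keeps only NAP-1 knockdown replicate 2 of its group, where the RefSeq mRNA feature of Dcp1 was at 0.758 RPKM. Tested singly, that feature had -1.82 ± 0.92 (SE, limma, adjusted p = 0.232) and the symbol-only feature -0.76 ± 0.31 (SE, adjusted p = 0.171). Dcp2 was at 1.31 ± 0.62 (SE, 95% interval -0.15 to 2.78, limma, adjusted p = 0.188), so the difference between the knockdowns in Dcp2 was not established. This comparison shares its CBP knockdown samples with that against control.

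Transcript length moved with the fold change in CBP knockdown across all genes. In 5 bins of about equal gene number, from shortest to longest, the log2 fold changes had medians of 0.29, 0.16, 0.03, -0.45 and -1.07, and the share called lower ran from 4.18% in the shortest bin to 22.2% and 40.1% in the longest pair. Dcp2, with a median transcript length of 3257.5 nt, and Dis3, with 3341.5 nt, fall in the longest bin, and LSm1 (588 nt) and Csl4 (940 nt) in the shortest. Against the median of its bin Dcp2 was lower (-2.48 against -1.07), while Dis3 (0.08, same bin), Fip1 (0.20 against -0.45) and Dcp1 (0.99 against 0.16) were higher. Once a smooth trend on length was removed from each sample, the log2 fold change of Dcp2 was -1.69 ± 0.58 (SE, limma, adjusted p = 0.0785), no longer a call, and that of Dcp1 (1369 nt) was 1.02 ± 0.33 (adjusted p = 0.0668). Fip1 then stood at 0.69 ± 0.30 and CstF-64 at 0.57 ± 0.25, both with an adjusted p of 0.137, and Dis3 at 0.90 ± 0.76 (adjusted p = 0.404). The cause of the trend, and its part in the Dcp2 result, were not tested.

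**Figure D4:**
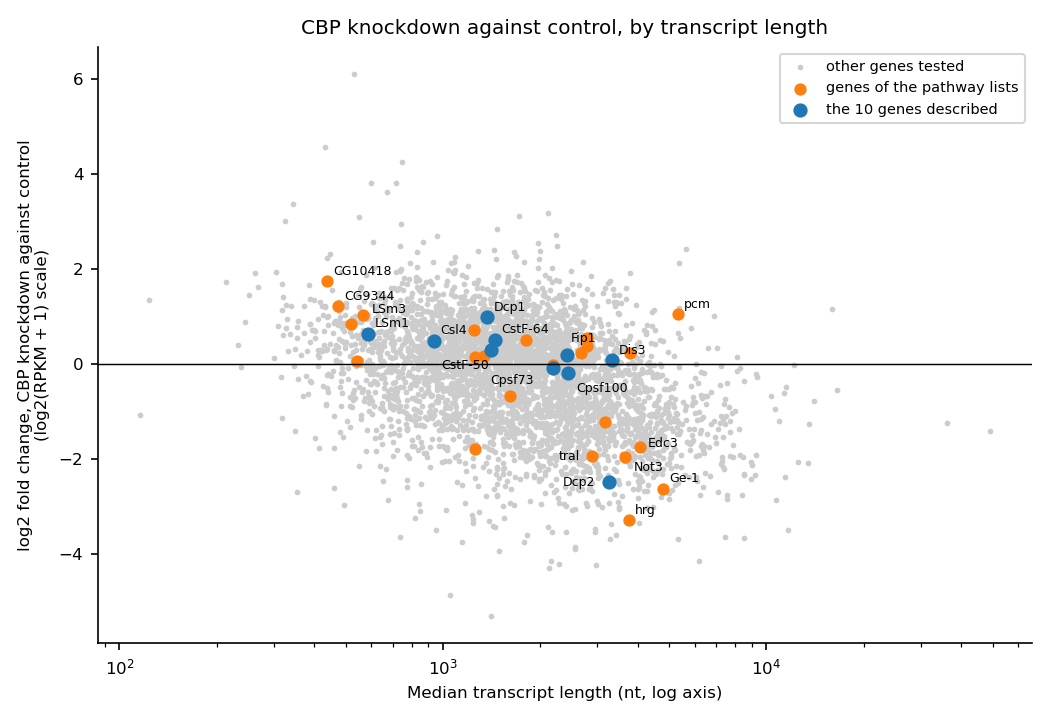
Log2 fold change in CBP knockdown against control (log2(RPKM + 1) scale) by median transcript length (nt, log axis) for all genes with a length (grey), the genes of the pathway lists (orange) and the 10 genes described (blue). Long transcripts lie lower, and Dcp2 (-2.48), Ge-1 (-2.62) and hrg (-3.29) lie well below 0, while pcm, a long transcript, lies above 0.

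Other genes of the same pathways were taken from 5 lists of textbook members. Of 55 genes listed 23 were tested; the others were not analysed here, among them all 6 listed for nonsense-mediated decay. In CBP knockdown against control 3 of the 23 rose and 5 fell, with a median log2 fold change of 0.17 (limma, adjusted p under 0.05; 8.5% and 17.4% of all genes). All of these calls were lost when control replicate 1 was left out, or CBP knockdown replicate 2. Dropping the other sample of either group lost some of them. The absence of control replicate 2 lost all 3 rises. Each gene kept its direction in these fits, which hold only 1 sample of a group. In NAP-1 knockdown against control 0 of the 23 passed, where 0% of all genes were called higher and 0.0251% lower. CG10418 and CG9344 were higher at an unadjusted p under 0.05, where 0.978% of all genes were. Between the knockdowns, where 1.43% of all genes were called higher and 1.65% lower, 1 passed. It was hrg, higher in NAP-1 knockdown (2.43 ± 0.44 SE, limma, adjusted p = 0.0459). That call was lost without any 1 library other than NAP-1 knockdown replicate 1 (adjusted p up to 0.267), with the replicate block (0.0771), 4 samples in the fit (0.1), a pseudocount of 0.1 (0.0583) or no variance trend (0.0517).

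Of 7 other 3' end factors tested, 0 rose and 1 fell in CBP knockdown, with a median of 0.39. The gene that fell was hrg, which encodes poly(A) polymerase, the enzyme that adds the tail after cleavage. It stood at 36.2 and 24.7 RPKM in control cells, 10.9 and 23.5 RPKM in NAP-1 knockdown cells, and 3.06 and 1.47 RPKM in CBP knockdown cells. Both CBP knockdown samples were far below all others, with a log2 fold change (± SE) of -3.29 ± 0.44 (limma, adjusted p = 0.0163), which was -2.35 (adjusted p = 0.0186) with the length trend removed. With that trend removed 2 of the 7 also rose, CG1109 (1.19, adjusted p = 0.042) and CG7185 (1.03, adjusted p = 0.0434), both named after their values were seen. Over all 3941 genes with a length, 435 were then called higher and 383 lower, with a median log2 fold change of 0.08. Clp, a zinc finger subunit of the cleavage complex, had 5.85 and 6.33 RPKM in control cells and 10.1 and 11.2 RPKM in CBP knockdown cells without passing (0.72 ± 0.25 SE, adjusted p = 0.0757). CG3689, named Cpsf5 in RefSeq, had a log2 fold change of 0.51 ± 0.26 (SE, adjusted p = 0.177).

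The decapping list held calls in both directions. Of 12 genes tested, 3 rose and 3 fell, with a median of 0.12. Ge-1, a scaffold that brings Dcp1 and Dcp2 together, stood at 12.7 and 7.48 RPKM in control cells, 5.05 and 6.41 RPKM in NAP-1 knockdown cells, and 1.38 and 0.284 RPKM in CBP knockdown cells. Its CBP knockdown samples were lowest of all, with a log2 fold change (± SE) of -2.62 ± 0.41 (limma, adjusted p = 0.0166). The translational repressor gene tral fell by 1.94 on the log2 scale (SE 0.42, adjusted p = 0.0254).

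CG10418, which the tables used here do not pair with another name, stood at 4.70 and 4.68 RPKM in control cells, 15.2 and 8.30 RPKM in NAP-1 knockdown cells, and 17.5 and 18.8 RPKM in CBP knockdown cells. The controls were below all 4 knockdown samples, and in CBP knockdown the log2 fold change was 1.75 ± 0.33 (SE, limma, adjusted p = 0.0185). The remaining calls were chosen for naming after their values were seen. Edc3, an enhancer of decapping, fell by 1.75 on the log2 scale (limma, adjusted p = 0.0301). It stood at 4.3 and 1.86 RPKM in control cells, 0.739 and 1.44 RPKM in NAP-1 knockdown cells, and 0.245 and 0.0801 RPKM in CBP knockdown cells. Its control values carried it over the minimum mean of 1 RPKM, so its entry to the test and its fall are not independent. CG9344 and LSm3, which encodes a subunit of the LSm ring, rose by 1.22 and 1.03 (adjusted p = 0.0271 and 0.0372). The 3 that fell have median transcript lengths of 2899 to 4789 nt and the 3 that rose of 437 to 567 nt. With the length trend removed Ge-1 (-1.48, limma, adjusted p = 0.0245), CG10418 and CG9344 were still called and tral, Edc3 and LSm3 were not. The exonuclease gene pcm, whose product degrades decapped RNA from the 5' end, was then called higher at 2.26 (adjusted p = 0.0257), against 1.05 (adjusted p = 0.07) as deposited. This gene too was chosen for naming after its values were seen. The LSm3 call was also lost with a minimum mean of 5 RPKM (0.95, adjusted p = 0.0557), quantile normalization (0.83, 0.0648), the replicate block (0.0646), single features (0.248) or symbol-only features (0.216). That of Edc3 was also lost with quantile normalization (-1.09, adjusted p = 0.0917). Each call named here also hung on single libraries. Leaving out control replicate 2 lost those of CG10418 (log2 fold change 1.75), CG9344 (1.47), LSm3 (1.10) and tral (-1.97). Dropping CBP knockdown replicate 1 instead lost those of CG9344 (1.22), LSm3 (1.18) and Edc3 (-1.85).

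Few genes of the remaining lists could be tested. Of 2 other exosome genes, Mtr3, a subunit of the ring, had a log2 fold change (± SE) of 0.15 ± 0.27 (limma, adjusted p = 0.694) and CG8777 0.23 ± 0.42 (adjusted p = 0.701) in CBP knockdown. Of 2 deadenylation genes, Not3, a subunit of the main deadenylase complex, stood at 7.08 and 1.74 RPKM in control cells, 1.27 and 2.37 RPKM in NAP-1 knockdown cells, and 0.283 and 0.152 RPKM in CBP knockdown cells. Its control values helped to carry it over the minimum mean of 1 RPKM, so its entry to the test and its fall are not independent. As with Dcp2, control replicate 1 was well above control replicate 2, and the log2 fold change was -1.95 ± 0.54 (SE, limma, adjusted p = 0.0404). It was -1.17 (adjusted p = 0.175) without control replicate 1, -1.28 (0.142) with quantile normalization and -1.04 (0.158) with the length trend removed, and the call was also lost without any 1 other library except control replicate 2, with the replicate block (0.0587) or with 4 samples in the fit (0.05). Rcd-1, another subunit, had -0.68 ± 0.53 (SE, adjusted p = 0.359).

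The genes whose pattern was most like that of Dcp2 were sought among 2089 genes with a mean of at least 5 RPKM, by Pearson correlation of log2(RPKM + 1) over the 6 samples. These samples share their groups and libraries, so the values describe likeness only. Git had r = 0.991, CG32479 r = 0.984 and LanA, a laminin subunit gene and itself on the list of S2 markers, r = 0.978, and 38 genes reached 0.9. LanA stood at 57.5 and 16.2 RPKM in control cells, 9.76 and 11.7 RPKM in NAP-1 knockdown cells, and 2.53 and 1.27 RPKM in CBP knockdown cells. In CG32479 and LanA, as in Dcp2, control replicate 1 was several times control replicate 2 and CBP knockdown was lowest.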

How the data were processed

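Messenger RNA libraries of S2 cells were made from total RNA with a stranded poly(A) kit, per the labels' protocols, and the genome build was dm3, as the submitters' processing notes give it. Neither the aligner nor the counting program and its use of strand is given in the sources used here. The authors deposited 1 table of RPKM values for 16381 features, with the number of alignments per sample as a count. Features are named by a symbol alone or by a RefSeq mRNA and a symbol. Of these features, 4459 were read and 11922 were not used: those with a mean under 1 RPKM that belong to no gene named here, and repeats of another feature. The 4414 features in the fit were summed per symbol to 3989 genes. Transcript lengths (3941 genes), gene names and overlaps came from release 6 annotation and RefSeq, matched by name for all 10 genes; no coordinates were converted.

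The values log2(RPKM + 1) of all 6 samples were fitted in a single model by group (R 4.3.3, limma 3.58.1, variance trend on), with 2-sided p-values and Benjamini-Hochberg adjustment over all genes at 0.05. No count model was applied to RPKM. The 10 genes and the lists were chosen with earlier results of these data known. Genes named are Nap1, nej, the 10 genes, the 3 of each list with the smallest p in CBP knockdown against control, and the 3 most correlated with the gene of smallest p; others are said to be chosen after their values were seen. Samples were grouped by their titles. Alternatives covered the pseudocount (0.1), the minimum mean (5 RPKM), median-of-ratios and quantile scaling, 4 samples in the fit, a replicate block, no variance trend, a threshold of 0.1, single and symbol-only features, a loess trend (span 0.5) on length, and each sample left out. A crossed replicate block and the counts of the lists under every alternative were added after seeing the data.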

Additional observations from a re-analysis of the deposited data

How the results depend on the processing

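Across the alternatives the 10 genes, Nap1 and nej gave 606 values, of which 523 kept their direction and side of the threshold, 45 changed direction, 30 lost and 8 gained a call; of 208 counts, 165 stayed within 1.5 times. The 10 genes called in CBP knockdown against control were 0 lower with a minimum of 5 RPKM (Cpsf100, Dcp2 and Dis3 were then not tested), quantile normalization or the length trend removed, and 1 higher (Dcp1) with median-of-ratios scaling, 4 samples, a threshold of 0.1 or symbol-only features. Leaving out a library gave 0 to 1 higher and 0 to 1 lower. In NAP-1 against CBP knockdown 1 was lower (Dcp1) at a threshold of 0.1, and leaving out a library gave 0 to 1. Of the list genes in CBP knockdown against control, 3 were lower with a minimum of 5 RPKM or quantile normalization and 2 with symbol-only features or the length trend removed, and 5 were higher with the length trend removed or a threshold of 0.1; leaving out a library gave 0 to 4 higher and 0 to 5 lower. In NAP-1 against CBP knockdown the lists had 0 higher with a pseudocount of 0.1, 4 samples, no variance trend, single features or symbol-only features, 2 with median-of-ratios scaling and 3 at a threshold of 0.1 (1 lower), and leaving out a library gave 0 to 3 higher and 0 to 1 lower.

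Some fold changes changed sign, and not only those near 0. Before any alternative was applied, nej was at -1.26 in CBP knockdown against control and at 0.79 in NAP-1 against CBP knockdown. In NAP-1 knockdown against control Dcp1 was 0.06 with median-of-ratios scaling, 0.0 with quantile normalization, 0.29 with symbol-only features and 0.05 with the length trend removed; Cpsf100 was 0.08 and Cpsf73 0.05 with quantile normalization, and 0.12 and 0.09 with the length trend removed, where nej was 0.05. In CBP knockdown against control Cpsf73 was 0.11 with median-of-ratios scaling, Cpsf100 and Cpsf73 were 0.14 and 0.10 with quantile normalization and 0.31 and 0.28 with the length trend removed, where nej was 0.23. In NAP-1 against CBP knockdown Cpsf100 was -0.06 and Fip1 0.03 with quantile normalization, and Cpsf100 -0.19 and nej -0.18 with the length trend removed. With a library left out, the ranges that crossed 0 in NAP-1 knockdown against control were -0.41 to 0.44 (CstF-50), -0.26 to 0.37 (Fip1), -0.11 to 0.90 (LSm1), -0.85 to 0.89 (Dis3), -0.04 to 0.07 (Csl4), -0.46 to 0.38 (Dcp1), -0.31 to 0.09 (Cpsf100) and -0.48 to 0.29 (Cpsf73). In CBP knockdown against control they were -0.78 to 0.94 (Dis3), -0.46 to 0.07 (Cpsf100) and -0.39 to 0.24 (Cpsf73). Between the knockdowns they were -0.18 to 0.35 (Cpsf100), -0.45 to 0.17 (Fip1), -0.93 to 0.81 (Dis3), -0.41 to 0.37 (Cpsf73), -0.71 to 0.14 (CstF-50) and -0.55 to 0.05 (LSm1). The causes were not tested.

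The labels do not say whether samples with the same replicate number belong together. Same-numbered deviations correlated at 0.245 (control and NAP-1), 0.125 (control and CBP) and -0.242 (NAP-1 and CBP). Such correlations across genes cannot show whether samples shared a culture or preparation, so pairing remains unknown. With the replicate block Dcp2 in CBP knockdown against control kept its call (-2.48, adjusted p = 0.0477), while Nap1 lost its calls in NAP-1 knockdown against control (adjusted p = 0.149) and against CBP knockdown (0.0565), as did nej in CBP knockdown against control (0.0692). In CBP knockdown against control the list counts were then 2 higher and 4 lower (0 higher between the knockdowns), and over all genes 187 were higher and 500 lower. NAP-1 against CBP knockdown had 57 genes higher and 66 lower without a block, 0 and 0 with it, and 272 and 146 with the CBP numbers crossed; without any 1 library other than NAP-1 knockdown replicate 1 it had 0 higher and 0 to 1 lower, and without that one 159 and 289. With the numbers crossed the lists had 3 higher. Over all genes CBP knockdown against control had 339 higher and 693 lower; leaving out control replicate 1 or CBP knockdown replicate 2 left 0 of either. The alternative without a minimum RPKM was left unrun, since features under 1 RPKM were not read. Dcp2 in CBP knockdown and Dis3 in replicate 1 of control and NAP-1 knockdown rest on an estimated few reads or fewer.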
